A study of Caenorhabditis elegans with 3 samples.

Results

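Cytochrome P450 genes outside the cyp-35 subfamily were read in young adult Caenorhabditis elegans without and with multiwall carbon nanotubes, a fibrous nanomaterial whose hollow threads consist of nested carbon cylinders. The members are the probe sets of the array whose single gene symbol begins with cyp- and not with cyp-35. There were 67 such probe sets, for 63 of the 17118 genes that the array's annotation names singly, among 22625 probe sets in all. Of the 63 genes, 4 (cyp-13B1, cyp-23A1, cyp-32A1 and cyp-42A1) had 2 probe sets each. A further 2 probe sets were annotated to several P450 genes, cyp-13A11 with cyp-13A12 and cyp-25A4 with cyp-25A5, and were left out.

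All 3 groups were hermaphrodites of the wild-type N2 strain, grown on agar with OP50 Escherichia coli and aged 3 days when the exposure began. The 0 h group had no treatment, and the 4 h and 24 h groups were incubated in a salt solution called K-medium that held nanotubes at 1 mg/L. Each group is 1 array of total RNA from whole worms. No array of worms kept for 4 h or 24 h without nanotubes was analysed here, so exposure, time in the medium and age cannot be told apart. With 1 array a time there is no replicate and no test of any difference, and this limits how precise any value can be.

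Cytochrome P450 enzymes are monooxygenases that hold a heme group and use electrons from NADPH to insert oxygen into fatty acids, sterols and foreign compounds. In nematodes they fall into clans. Clan 2 is the most expanded in worms, clan 3 includes relatives of the human drug-metabolising enzymes, clan 4 includes relatives of fatty acid hydroxylases, and a mitochondrial clan stands apart. In worms many of these genes are expressed in the intestine, and individual members have known parts in making eicosanoids, in forming the eggshell and in the response to low oxygen.

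Values are normalized intensities on a linear scale, and ratios are on the log2 scale after 32 was added to each intensity, so that differences of dim probe sets are understated. "Higher" and "lower" mean at least 2-fold on that scale unless a value is given. A probe set was kept for counting when its mean log2 level reached the median of all probe sets, 7.09, an intensity of 103.9. The background floor is the highest intensity of a control for a transcript absent from the sample, 67.8. As a measure of technical error, the SD of a ratio between 2 probe sets of the same gene over 1830 genes was 0.24 for the ratio of 4 h to 0 h, 0.47 for that of 24 h to 0 h and 0.29 for that of 24 h to 4 h. This SD was computed about 0, so it includes a systematic part. In the same order, the brighter probe set of a pair had the lower ratio in 76.1%, 78.6% and 72.6% of the genes. The mean difference of brighter minus dimmer was -0.17, -0.35 and -0.18. The technical SD leaves out any variation between animals, cultures or hybridisations.

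Median intensities of all probe sets lay between 100.2 and 102.8 on the arrays. The yolk protein genes that mark adult hermaphrodites were present, with 5 of 6 genes measured and 0 of these under the floor. Their summed intensity was 84285, 78617 and 68877 on the 0 h, 4 h and 24 h arrays. Of these 5 genes, 0 were higher and 1, vit-1, was lower at both exposure times. The intensities of vit-1 were 9514, 3867 and 950.2 in that order, with ratios to 0 h of -1.29 and -3.28. The summed intensity of 13 measured sperm genes of 15 was 84107, 61646 and 13201 in the same order, and all 13 were lower at 24 h than at 0 h. Of 11 measured intestine genes of 12, 4 were lower at 4 h and 5 at 24 h, 0 were higher against 0 h, 0 lay under the floor on every array, and their summed intensity was 33064, 28294 and 28405. Of 10 larval moult genes, 2 were higher and 1 lower at 4 h and 6 were higher and 1 lower at 24 h, with a summed intensity of 22416, 24491 and 28631. The signal ratios of the 5' to the 3' end of 4 control transcripts exceeded their 0 h values, with a median log2 difference of 0.32 for the 4 h array and 0.56 for the 24 h array. The part of these shifts in the P450 results was not tested. In RNA from whole worms, fewer cells of a type and less RNA per cell cannot be told apart.

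Of the P450 genes outside cyp-35, cyp-37B1, cyp-34A9 and cyp-32B1 were higher at both exposure times, and 0 of the 22 kept probe sets were lower. The clan 4 gene cyp-37B1 was 8.67-fold higher at 4 h. The clan 2 gene cyp-34A9 was 2.68-fold higher at 4 h, and the clan 4 gene cyp-32B1 was at least 2.87-fold higher. Most of the family was dim or close to its 0 h level. The median ratio of the kept probe sets was 0.00 at 4 h and 0.00 at 24 h, and the median of all 10706 kept probe sets of 1 gene was also 0.00 in both comparisons.

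The 3 genes make up 13.6% of the 22 kept probe sets at each time. Among all kept probe sets of 1 gene, 1.68% were higher and 2.89% lower at 4 h, and 5.72% were higher and 7.06% lower at 24 h. The filter itself bears on this share, since cyp-37B1 and cyp-32B1 had 0 h intensities under 103.9 and passed through their 4 h and 24 h values. Without a filter, 3 of 67 probe sets (4.48%) were higher at each time, beside 0.949% at 4 h and 3.26% at 24 h of all 20766 probe sets of 1 gene. Without a filter 0 of 67 were lower, beside 1.69% and 4.22%. With so few members these shares are a description of the arrays and were not tested.

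The gene cyp-37B1 had an intensity of 87.2 at 0 h, 1002 at 4 h and 859.4 at 24 h. Both exposed arrays stood far above the 0 h array and near each other. The log2 ratio to 0 h was 3.12 at 4 h and 2.90 at 24 h, a 7.48-fold difference at 24 h, and the ratio of 24 h to 4 h was -0.21. Its single probe set is not marked by the manufacturer as open to cross-hybridisation. Its family relative, cyp-37A1, had 473.9 at 0 h, 748.8 at 4 h and 535.6 at 24 h, with the 4 h array highest (0.63 at 4 h and 0.17 at 24 h), and is read by a probe set open to cross-hybridisation.

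The gene cyp-34A9 had an intensity of 426.8 at 0 h, 1198 at 4 h and 1072 at 24 h. The exposed arrays were again alike and the 0 h array low, with log2 ratios of 1.42 at 4 h and 1.27 at 24 h and a 2.41-fold difference at 24 h. Its probe set is likewise not marked.

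The gene cyp-32B1 had an intensity of 64.2 at 0 h, 254.6 at 4 h and 348.8 at 24 h. The 0 h value lay under the floor, so the differences are lower bounds, at least 2.87-fold at 4 h and at least 3.81-fold at 24 h. The 24 h array was the highest of the 3, with a ratio of 0.41 to 4 h. The probe set is open to cross-hybridisation with related transcripts, and when such probe sets were left out cyp-37B1 and cyp-34A9 were the 2 genes higher of 13 probe sets. No such difference was seen in the values of the relative cyp-32A1. Its bright probe set had 323.5, 323.5 and 294.5, and its dim one had 80.9, 82.2 and 80.9, in the order of the times. The bright one is also open to cross-hybridisation, and the dim one lay near the floor. Each holds a pair of identical values, which does not show that the transcript was constant.

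**Figure D1:**
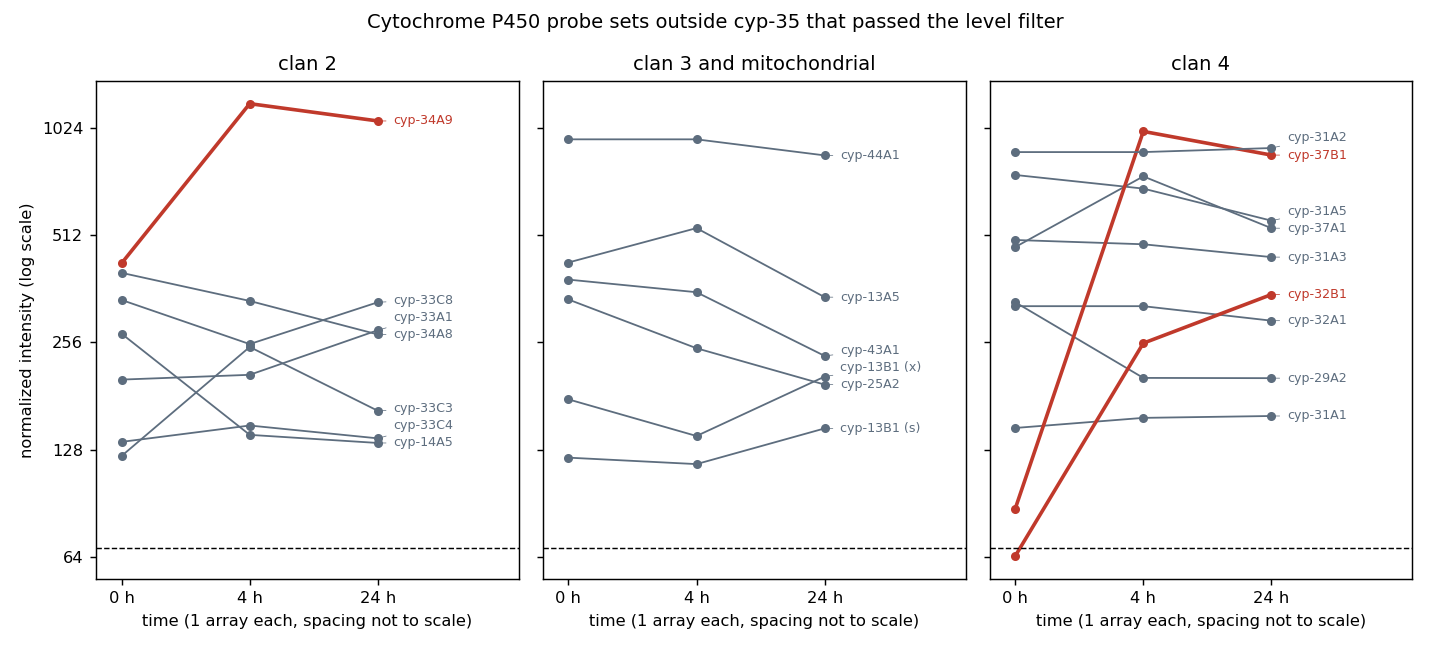
Normalized intensity of the 22 kept P450 probe sets outside cyp-35 (vertical axis, log scale) on the 0 h, 4 h and 24 h arrays (horizontal axis, 1 array each, spacing not to scale), in panels by clan. Each line is a probe set, the dashed line is the background floor of 67.8, and red marks cyp-37B1, cyp-34A9 and cyp-32B1, whose 4 h and 24 h points lie far above their 0 h points. The letters x and s after cyp-13B1 tell its 2 probe sets apart.

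For 24 h against 4 h, 0 of 22 kept probe sets were higher and 0 lower, beside 2.2% higher and 2.81% lower among all kept probe sets of 1 gene. The ratios ran from -0.60 for cyp-13A5 to 0.47 for cyp-13B1, and their median was -0.12 against 0.00 for all kept probe sets. Of the 22, 15 lay below 0 and 7 above (8 and 14 after scaling on hybridisation controls, bacterial transcripts added in fixed amounts). Without that scaling, 5163 of all 10706 kept probe sets of 1 gene lay below 0 and 4367 above. At 1.5-fold 0 were higher and 1, cyp-13A5, was lower, beside 6.81% and 8.26% of all kept probe sets. This comparison shares the 4 h array with the first and the 24 h array with the second.

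Among the 22 kept probe sets, those just short of 2-fold were cyp-33C3 on the higher side and cyp-14A5 on the lower side. Among the probe sets not kept, cyp-34A2 came nearest on the higher side (0.93 at 4 h) and cyp-29A3 on the lower side (-0.88 at 24 h). The clan 2 gene cyp-33C3 had 122.8 at 0 h, 248.5 at 4 h and 164.4 at 24 h, with ratios of 0.86 and 0.34, so that the 4 h array stood above the others. The clan 2 gene cyp-14A5 had 270.8, 140.8 and 133.6, with ratios of -0.81 and -0.87, and its exposed arrays were alike. With 1 added to the intensities in place of 32, cyp-33C3 passed 2-fold at 4 h and cyp-14A5 passed 2-fold in the lower direction at 24 h. At 24 h the nearest kept member on the higher side was cyp-33A1, with 201.2, 207.5 and 277.0 (0.41).

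At a threshold of 1.5-fold, 5 of the 22 kept probe sets were higher and 2 lower at 4 h, beside 6.71% and 7.32% of all kept probe sets. At 24 h, 3 were higher and 4 lower, beside 15.9% and 15.6%. The lower ones at 24 h were cyp-14A5, cyp-25A2 (337.8, 246.5 and 194.8), cyp-29A2 (332.0, 203.4 and 203.1) and cyp-43A1 (384.2, 354.1 and 234.5). In cyp-29A2 the exposed arrays were nearly equal, whereas cyp-25A2 and cyp-43A1 were lowest at 24 h. The 24 h ratios of these 4 genes, between -0.87 and -0.63, were 1 to 2 times the technical SD of 0.47.

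**Figure D2:**
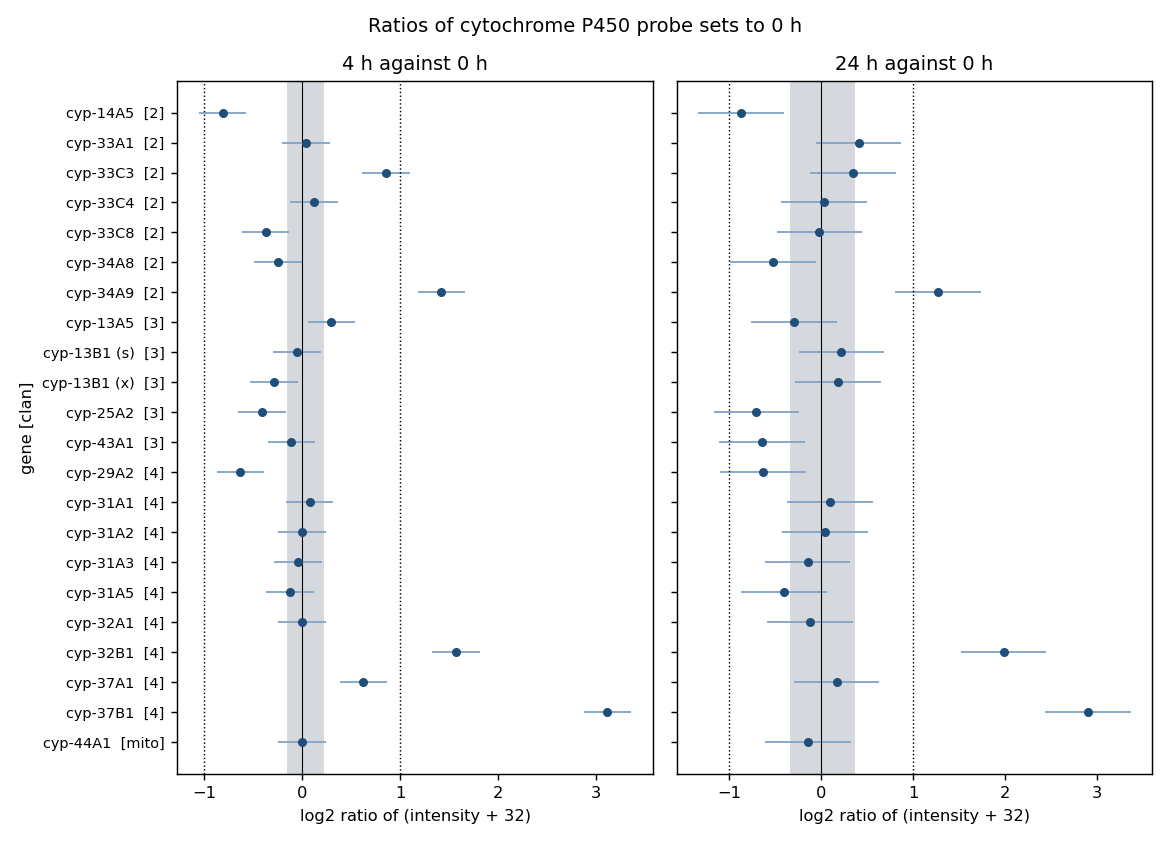
Log2 ratio of intensity with 32 added to 0 h (horizontal axis) for each kept P450 probe set outside cyp-35 (vertical axis, clan in brackets), at 4 h and 24 h, 1 array a time. Bars are 1 technical SD between probe sets of the same gene, the grey band is the middle 50% of all kept probe sets of 1 gene, and dotted lines mark 2-fold. Points beyond the right dotted line are cyp-37B1, cyp-32B1 and cyp-34A9, and no point lies beyond the left one.

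The eggshell genes cyp-31A2 and cyp-31A3, which are needed together for a sealed eggshell, were near their 0 h level as deposited. In the order of the times, the probe set of cyp-31A2 had 876.3, 876.3 and 899.5, and that of cyp-31A3 had 496.3, 482.8 and 444.3. Their 24 h ratios were 0.04 and -0.15. The identical 0 h and 4 h values of cyp-31A2 do not show that the transcript was constant. With scaling on hybridisation controls the ratios to 0 h were 0.44 and 0.68 for cyp-31A2 and 0.39 and 0.48 for cyp-31A3. The subfamily members cyp-31A5 (755.8, 692.0 and 562.3) and the annotated pseudogene cyp-31A1 (147.2, 157.1 and 159.0) had 24 h ratios of -0.41 and 0.09. These copies resemble each other, the probe sets of cyp-31A1 and cyp-31A2 are open to cross-hybridisation, and how the signal divides between copies is uncertain. The sperm genes, by contrast with cyp-31A2 and cyp-31A3, had a median ratio of -2.60 at 24 h as deposited.

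The eicosanoid genes were dim, and none reached the filter. The product of cyp-29A3 takes part in making eicosanoids from polyunsaturated fatty acids, and it had 152.8, 78.2 and 68.4 at the 3 times. Both exposed arrays lay near the floor (ratios -0.75 and -0.88), and by plain intensity ratios with nothing added cyp-29A3 passed 2-fold in the lower direction at 24 h. The gene cyp-33E2, which acts in the pharynx and also makes eicosanoids, had 112.7, 103.3 and 89.4 (ratios -0.10 and -0.25). Its relative cyp-33E1 had 39.8, 76.5 and 52.1, above the floor on the 4 h array and under it on the others, and cyp-33E3 was at 12.4 on each array.

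The gene cyp-36A1, which acts downstream of the hypoxia pathway of egl-9 and hif-1, had 136.8 at 0 h, 68.9 at 4 h and 69.5 at 24 h. Both exposed arrays stood just above the floor and alike, with ratios of -0.74 and -0.73, and the probe set did not reach the filter. The mitochondrial P450 gene cyp-44A1 had 951.5, 951.5 and 857.7, with ratios of 0.00 and -0.14. It was identical on the 0 h and 4 h arrays. The 2 probe sets of cyp-42A1, a clan 4 gene, were under the floor on every array.

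Members of clan 2 numbered 34 genes with 35 probe sets, of which 7 were kept, cyp-34A9 among them. Of the 11 cyp-33C genes, 3 were kept. Besides cyp-33C3 these were cyp-33C4, with 134.5, 149.5 and 137.6, and cyp-33C8, with 336.8, 253.2 and 331.8, lowest at 4 h. The dim cyp-33C9 had 112.6, 99.3 and 59.6, under the floor at 24 h, a difference of at least 1.45-fold. Another 5 cyp-33C genes were under the floor on every array. Of the 5 cyp-14A genes, cyp-14A5 was kept and the other 4 were under the floor on every array.

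Clan 3 held 15 genes with 16 probe sets, of which 5 were kept. The cyp-13A subfamily was mostly not measurable on these arrays, with 7 of 9 genes under the floor throughout. The bright one, cyp-13A5, had 429.0, 535.9 and 342.9, highest at 4 h and lowest at 24 h. The gene cyp-13A7, which is known to be induced by the drug rifampicin, had 80.8, 80.8 and 87.1, just above the floor. The 2 probe sets of cyp-13B1 had 177.1, 139.7 and 205.2 and 121.5, 116.5 and 146.8, and both were highest at 24 h. The clan 4 genes numbered 13 with 15 probe sets, of which 9 were kept. Of these, cyp-37B1 and cyp-32B1 passed the filter through the exposed arrays.

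Of the 67 probe sets, 32 were under the floor on every array, 29 above it on every array and 6 above it on some. At 0 h 46.3% of the members lay above the floor, against 59.2% of all probe sets of 1 gene. The share was 50.7% at 4 h and 47.8% at 24 h, against 59.0% and 59.7%. The 22 kept are 32.8% of the members, against 51.6% of all probe sets of 1 gene. A value under the floor shows only that the transcript was not measurable here. The 45 probe sets not kept had ratios between -0.75 and 0.93 at 4 h and between -0.88 and 0.59 at 24 h.

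Dim members often had exactly the same value on several arrays. All 3 arrays were identical for 11 members (16.4%), against 13.5% of all probe sets of 1 gene, and 0 of these 11 were kept. At 4 h against 0 h 16 members were identical, among them the kept cyp-31A2, cyp-32A1 and cyp-44A1. Such ties come with the deposited values, lower the apparent noise and do not show that a transcript was constant. In the 4 genes with 2 probe sets, the ratios of the pair differed by 0.24 or less in each comparison. The largest of these differences was that of cyp-13B1 at 4 h, -0.28 against -0.05.

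Many of these genes lie side by side in the genome. In the gene order of the WBcel235 assembly, counting protein-coding genes and pseudogenes and allowing 1 other gene between, 33 of the 63 genes fell into 9 runs of 2 to 8. The 6 genes from cyp-34A5 to cyp-34A10 are direct neighbours. Within that run cyp-34A9 was higher at both times, and its neighbour cyp-34A8 had 401.3, 334.7 and 269.4. The ratios of cyp-34A8 were -0.24 and -0.52, and with the arrays scaled on hybridisation controls they were 0.17 and 0.08. Its neighbour on the other side, cyp-34A10, was above the floor at 4 h only (50.2, 88.5 and 59.9), and cyp-34A5, cyp-34A6 and cyp-34A7 were under the floor throughout. Elsewhere in the subfamily, cyp-34A2 had 47.3, 118.7 and 87.1. Its 4 h and 24 h values were above the floor and at least 1.51-fold and 1.19-fold higher, while the adjacent cyp-34A1 lay under the floor with an identical value on each array.

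The gene cyp-32B1 lies between nhr-13, a nuclear receptor gene with 241.6, 261.8 and 246.2, and cyp-33C12, which was at 27.6 on each array. Next to cyp-37B1, which has no P450 gene beside it, str-183 and F28G4.2 were under the floor throughout, so no neighbour could be compared. In the cyp-33C run of 5 genes cyp-33C3 was highest at 4 h, while cyp-33C4, cyp-33C5 and cyp-33C7 had ratios between 0.02 and 0.12 at 4 h and cyp-33C6 was identical on every array. In the cyp-13A run of 8, cyp-13A5 and cyp-13A7 were above the floor.

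**Figure D3:**
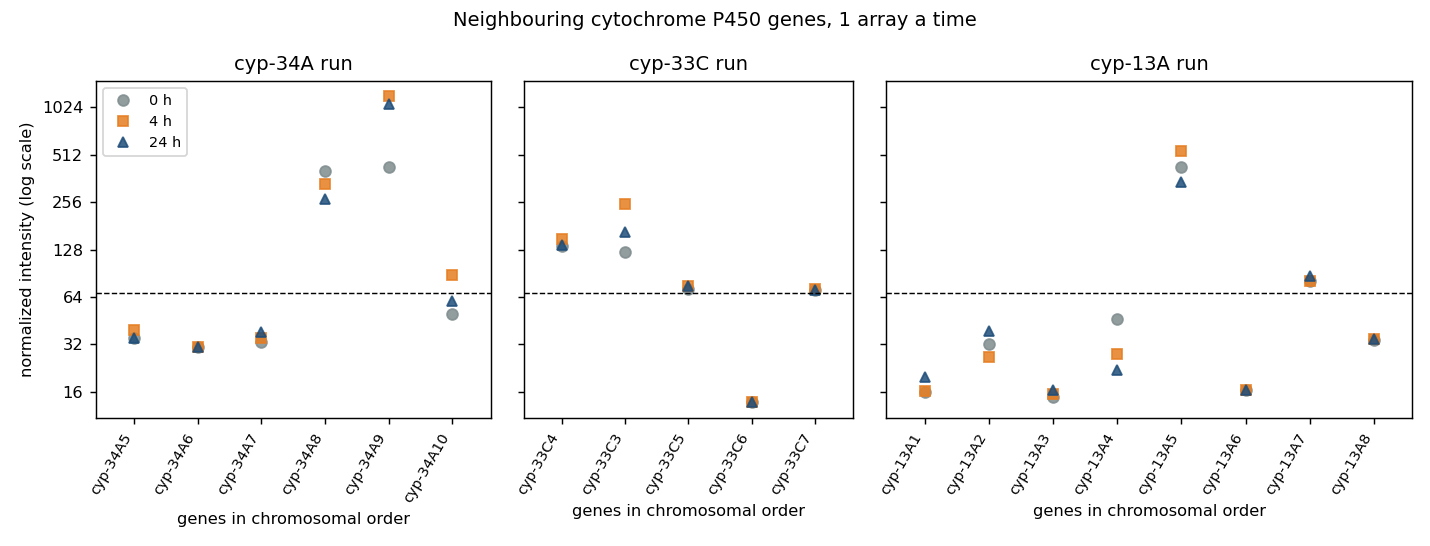
Normalized intensity (vertical axis, log scale) of neighbouring P450 genes in chromosomal order (horizontal axis) on the 0 h, 4 h and 24 h arrays, 1 array each, for 3 runs. The dashed line is the background floor of 67.8. In the cyp-34A run the 4 h and 24 h points of cyp-34A9 lie above its 0 h point, those of cyp-34A8 lie lowest at 24 h, and 3 of the 6 genes lie under the floor.

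The 7 kept probe sets of the cyp-35 subfamily lay below 0 at both exposure times on the same arrays. As deposited, the 22 kept probe sets outside it had no common direction. Of these, 9 lay above and 10 below 0 at 4 h, and 11 above and 11 below at 24 h. Among all 10706 kept probe sets of 1 gene, 5207 lay above and 3964 below 0 at 4 h. At 24 h these counts were 5156 and 4830. Of its 7 kept probe sets, 5 were lower at 4 h and 7 at 24 h, with 0 higher, and their median ratio was -1.92 and -4.01. The gene cyp-35B3 is separated from the cyp-34A run by 3 genes. Next to cyp-35B3, which was under the floor throughout, cyp-35B2 had 485.2, 426.9 and 96.7. In the cyp-34A run, cyp-34A9 had 426.8, 1198 and 1072, and cyp-34A8 had 401.3, 334.7 and 269.4. The ratios of cyp-34A8 (-0.24 and -0.52) were close to the technical SD of 0.24 and 0.47. With scaling on hybridisation controls they were 0.17 and 0.08. The dim cyp-34A10 had ratios of 0.55 and 0.16, and cyp-34A5, cyp-34A6 and cyp-34A7 were under the floor. Within the run cyp-34A9 was therefore higher, and whether the other genes share a direction could not be read. The comparisons share the 0 h array, and the difference between the subfamilies was not tested.

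P450 enzymes depend on partner proteins that bring electrons, and the genes of these differed among themselves. The gene emb-8 encodes the NADPH-dependent reductase that passes electrons to P450 enzymes. It had 776.0, 513.4 and 385.0 at the 3 times, with ratios of -0.57 and -0.95, lowest at 24 h and short of 2-fold (-0.14 and -0.33 with scaling on hybridisation controls). Cytochrome b5 can also pass electrons. Of its genes, cytb-5.1 had 1535, 1017 and 1118 (ratios -0.58 and -0.45, the latter 0.20 with scaling on hybridisation controls), and cytb-5.2 had 2424, 3595 and 6654, which is higher at 24 h (1.44) and 0.56 at 4 h (1.01 with the same scaling). Of the 4 listed electron partner genes 1 was higher at 24 h and 0 lower. The fourth, F41E6.5, whose place in this pathway is not certain, had 2 probe sets that differed in sign, with ratios of 0.85 and -0.58 at 4 h.

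Genes that supply polyunsaturated fatty acids, the substrates of the eicosanoid-forming P450 enzymes, included several past 2-fold. Of 6 genes, 1 was higher and 1 lower at 4 h, and 3 were higher and 1 lower at 24 h. The desaturase gene fat-3 had 1736, 3641 and 10158 (ratios 1.06 and 2.53), fat-4 had 1104, 1970 and 4731 (0.82 and 2.07), and fat-2 had 2435, 4099 and 7347 (0.74 and 1.58). All 3 were highest at 24 h. The desaturase gene fat-1 had 2215, 3292 and 4294 and was short of 2-fold (0.95 at 24 h). With scaling on hybridisation controls fat-1 passed 2-fold at both times (1.01 and 1.60), and the 4 fat genes were higher and 0 of the 6 lower at each time. The elongase gene elo-2 had 1194, 533.2 and 576.4 and was lower at both times (-1.12 and -1.01, or -0.69 and -0.38 with scaling on hybridisation controls), and elo-1 was identical on every array. The epoxide hydrolase genes ceeh-1 and ceeh-2, whose products open the epoxides that P450 enzymes make, had ratios between -0.19 and 0.37.

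The steroid hormone pathway was mostly too dim to read. Its P450 gene daf-9, which makes dafachronic acid and is not named with cyp-, was at 64.2 on each array, and 4 of 7 genes of the list were under the floor throughout. The hormone receptor gene daf-12 was the 1 gene kept, with 409.9, 438.9 and 529.8 in its brightest probe set (ratios 0.09 and 0.35). The oxygenase gene daf-36 had 86.5, 32.6 and 37.8, under the floor on both exposed arrays.

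Of 15 regulator genes, 13 were measured and 11 kept, and 0 were higher at either time as deposited. With scaling on hybridisation controls the brightest probe sets of aha-1 (1.03), pqm-1 (1.22) and sbp-1 (1.41) were higher at 24 h, and so were other probe sets of aha-1 (1.19), nhr-46 (1.14), nhr-49 (1.15) and daf-16 (1.00). The stress regulator gene skn-1 was lower at 24 h, with 1617, 1073 and 629.8 in its brightest probe set (ratios -0.58 and -1.32), and its other kept probe set had ratios of -0.47 and -1.01. With scaling on hybridisation controls the 24 h ratios of these probe sets were -0.68 and -0.37, short of 2-fold. The nuclear receptor gene nhr-8, known for resistance to foreign compounds, had 214.8, 292.1 and 290.3 (0.39 and 0.38). The aryl hydrocarbon receptor gene ahr-1 had 139.8, 149.3 and 192.8, and nhr-46, which acts with cyp-36A1, had 1197, 1201 and 1104. The fat metabolism regulator gene sbp-1 had 282.7, 360.7 and 509.8 (0.32 and 0.78). The probe sets of hif-1 and egl-9 were not annotated to a single symbol and were not used here.

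**Figure D4:**
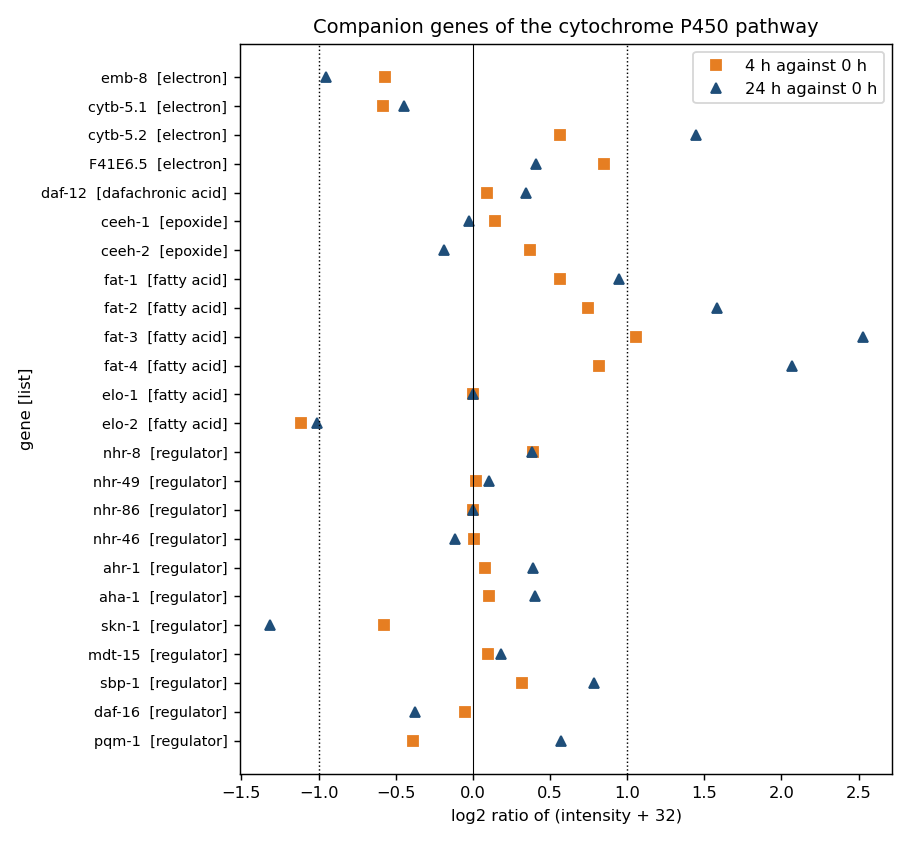
Log2 ratio of intensity with 32 added to 0 h (horizontal axis) for the brightest probe set of each kept companion gene (vertical axis, list in brackets), squares at 4 h and triangles at 24 h, 1 array a time. Dotted lines mark 2-fold. The genes fat-2, fat-3, fat-4 and cytb-5.2 lie beyond the right line at 24 h, and elo-2 and skn-1 beyond the left one.

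Every direction here is set against the rest of the array. The bacterial hybridisation controls had a mean ratio of -0.45 at 4 h and -0.66 at 24 h (SD 0.14 and 0.31, 9 controls), and scaling on them moved the median of all kept probe sets to 0.44 and 0.63. Under that scaling cyp-37B1 (3.55 at both times), cyp-34A9 (1.86 and 1.91) and cyp-32B1 (1.98 and 2.60) were still higher. With cyp-33C3 (1.26) and cyp-37A1 (1.06) 5 genes were higher at 4 h, and with cyp-33A1 (1.01) 4 genes were higher at 24 h. These counts come with an upward shift of the whole array. The share of all kept probe sets past 2-fold under this scaling is not given. With this scaling, ratios below 0 were found for 3 of 22 probe sets at 4 h and 4 of 22 at 24 h. The latter were cyp-14A5 (-0.31), cyp-25A2 (-0.12), cyp-29A2 (-0.04) and cyp-43A1 (-0.05). The matching share of all kept probe sets below 0 is not given either, so these counts are not set against the array.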

How the data were processed

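Total RNA from whole worms was labelled by 3' in vitro transcription and hybridised to Affymetrix C. elegans arrays, per the labels' protocols. Each array has 1 column of deposited, normalized intensities, which run from 9.08 to 31806. The submitters' processing notes name Affymetrix Expression Console 1.1, MAS5 and RMA without stating which step each served. Genes were named by the platform annotation, and all 67 members matched the WBcel235 gene table, which was used for names and gene order only. After adding 32, intensities were put on the log2 scale and probe sets at or above the median level were kept. The floor was the highest of 8 yeast and trp controls. Named were genes past 2-fold, the 5 of highest level, those nearest the threshold, those with 2 probe sets and those with known roles. The members, lists, filter and alternatives were chosen with earlier results of these data known. The plain intensity ratio, counted over probe sets above the floor on at least 1 array, was added after the data were seen. Counting was tested on simulated data with noise below the technical SD. This checks the counting and not how reliable a 2-fold difference is on these arrays. Computations used Python 3.11.15, numpy 2.4.6, pandas 2.3.3 and statsmodels 0.14.6.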

Additional observations from a re-analysis of the deposited data

How the results depend on the processing

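No paired analysis was possible because each time has 1 array. Leaving out a replicate was not possible for the same reason. Of the settings tried, 7 recompute the ratios. Scaling on the hybridisation controls moved all 30 ratios of named genes to 0 h by the technical SD or more. It moved no ratio of 24 h to 4 h of these genes that far. The other 6 moved 10 of 270, a number that also counts ratios of 24 h to 4 h and so is not on the same footing as the 30. All 10 were ratios of cyp-37B1 or cyp-32B1 to 0 h, and 0 called ratios changed sign under any of the 7. The ratio of cyp-37B1 ran from 2.56 to 3.55 at 4 h and from 2.36 to 3.55 at 24 h, that of cyp-34A9 from 1.30 to 1.86 and from 1.15 to 1.91, and that of cyp-32B1 from 1.11 to 1.99 and from 1.45 to 2.60. With a filter at the 75th percentile 6 probe sets were left and cyp-34A9 was the 1 higher at 4 h and at 24 h, and cyp-37B1 and cyp-32B1 missed this filter, whose mean includes their low 0 h values. At 3-fold 1 gene, cyp-37B1, was higher at 4 h and 2 genes, cyp-32B1 and cyp-37B1, were higher at 24 h against 0 h. The shares of all probe sets at 3-fold and with the filter at the 75th percentile are not given. At 1.5-fold 5 were higher and 2 lower at 4 h, 4 were lower at 24 h against 0 h and 1 was lower at 24 h against 4 h. With 1 added, and with the 1st percentile subtracted and 16 added, 1 gene, cyp-14A5, was lower at 24 h. Scaling on the hybridisation controls gave 5 higher at 4 h and medians of 0.42 at 4 h and 0.59 at 24 h. These medians were close to the shift of all probe sets under it, whose share past 2-fold is not given. Plain ratios were counted over the 35 probe sets above the floor on at least 1 array, in place of the level filter. Of these, 5 were higher at 4 h, cyp-33C3 and cyp-34A2 among them, and 2 were lower at 24 h, cyp-14A5 and cyp-29A3. This leaves out cyp-13A4, under the floor with 46.1 at 0 h and 22.0 at 24 h, a plain ratio of 0.48. The share of all probe sets under this setting is not given. Signal near the floor limits what can be said of the 45 dim members.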
